A study of Homo sapiens with 60 samples.

Results

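SQSTM1 and 9 other genes of the autophagy and lysosome system (MAP1LC3B, GABARAPL1, WIPI1, ULK1, NBR1, OPTN, TFEB, LAMP1 and CTSD) were followed in SW1783, a human astrocytoma cell line. They were chosen by symbol, 10 of the 60675 genes in the count table, and all 10 passed the filter on low counts. RNA was sequenced in 60 libraries of 25 groups after 24 h with a herbal extract or with vehicle in Leibovitz's L-15 medium. Doses were 20, 100 and 500 µg/mL for the water extracts of the multi-herb decoctions Soshiho-tang (2 libraries at each dose) and Yijin-tang (3 at each). The same doses were used for the ethanol extracts of Zizyphi Semen, Longan Arillus and Liriopis seu Ophiopogonis Tuber, again with 3 libraries at each. The ethanol extract of Schisandrae Fructus, also with 3, was tested at 12.4, 62 and 310 µg/mL. Ethanol extracts of Aucklandiae Radix (6.4, 32 and 160 µg/mL) and of Polygalae Radix (1.2, 6 and 30 µg/mL) were represented by 1 library at each dose. The vehicle was dimethyl sulfoxide, with 3 libraries. The labels give it as 0.1% and the design text as 2%, and which was used is not settled by the sources used here. Per the design text, an extract whose concentration for 20% inhibition (IC20) lay below 500 µg/mL was given at that concentration and at fixed dilutions of it, so the doses of Schisandrae Fructus, Polygalae Radix and Aucklandiae Radix are not matched to those of the other extracts.

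Autophagy encloses cell material in a double membrane and delivers it to the lysosome for breakdown. ULK1 starts the process, WIPI1 binds the lipid mark on the growing membrane, and MAP1LC3B and GABARAPL1 are ATG8-type proteins that are joined to that membrane. SQSTM1 (p62), NBR1 and OPTN are cargo receptors that tie ubiquitin-marked material to the ATG8 proteins, and are themselves degraded on the way. LAMP1 is a main protein of the lysosomal membrane, CTSD is the aspartic protease cathepsin D, and TFEB is a transcription factor that drives many lysosomal and autophagy genes. SQSTM1 also binds KEAP1, the protein that marks the transcription factor NRF2 for degradation, and the SQSTM1 gene is itself a known NRF2 target. The values below are RNA levels, and neither protein nor autophagic flux was measured in these libraries.

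Windows of 250 bases directly before the annotated start sites were searched for motifs tied to these regulators. Sequences are from RefSeq on GRCh38.p14, which had 16 windows for the 10 members. Each was read 5′ to 3′ on its gene's strand, which is the plus strand for the 3 printed here. Capitals mark matches on either strand to TGACNNNGC, the core of the antioxidant response element that NRF2 binds, to CACGTG, the E-box core, and to TCACGTGA, which contains the E-box core and is part of the element that TFEB binds. The 3 windows below are of SQSTM1, the member with the widest range of levels between replicated groups, at chr5:179820655-179820904, of MAP1LC3B at chr16:87392086-87392335, and of LAMP1, the member with the most matches, at chr13:113296989-113297238.
SQSTM1: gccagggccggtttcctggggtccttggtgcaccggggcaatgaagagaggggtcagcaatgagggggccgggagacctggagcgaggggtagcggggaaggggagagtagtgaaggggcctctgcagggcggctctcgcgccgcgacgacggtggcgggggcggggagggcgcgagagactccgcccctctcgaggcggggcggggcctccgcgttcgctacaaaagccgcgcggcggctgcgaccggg
MAP1LC3B: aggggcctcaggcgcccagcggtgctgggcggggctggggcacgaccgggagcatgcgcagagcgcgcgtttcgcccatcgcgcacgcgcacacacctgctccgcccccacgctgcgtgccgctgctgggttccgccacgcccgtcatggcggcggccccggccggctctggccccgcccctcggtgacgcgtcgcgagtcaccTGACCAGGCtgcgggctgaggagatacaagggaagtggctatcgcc
LAMP1: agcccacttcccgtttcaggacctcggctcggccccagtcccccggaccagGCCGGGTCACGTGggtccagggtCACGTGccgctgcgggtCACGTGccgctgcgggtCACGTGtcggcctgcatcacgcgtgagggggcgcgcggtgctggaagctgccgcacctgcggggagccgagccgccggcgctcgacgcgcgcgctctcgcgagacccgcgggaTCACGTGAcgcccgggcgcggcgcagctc
TGACNNNGC was found in MAP1LC3B at position -46 from the start site, in LAMP1 at position -199 and in CTSD at position -195. It occurs in 10.9% of the 35116 RefSeq windows of this length. CACGTG was found 5 times in LAMP1 and 1 time in CTSD, against 6.34% of all windows with a match, and TCACGTGA was found in LAMP1 alone among the members, at position -29, against 0.854% of all windows. In LAMP1 the match to TGACNNNGC shares bases with a CACGTG, and the match to TCACGTGA is also counted as a CACGTG. None of the 3 SQSTM1 windows held any of these letters. A match describes the sequence only, and no match says nothing about sites outside the window.

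Libraries held 18.73 to 35.52 M counts. Levels are CPM, read counts scaled to a common library size, and values in a group are given in replicate order. The astrocyte genes GFAP, S100B, AQP4 and ALDH1L1 did not exceed 0.313 CPM in any library. The other 3 genes of the glial list were detected, with means in vehicle libraries of 30.8 CPM for SLC1A3, the glial glutamate transporter, 83.5 CPM for SOX9 and 4767 CPM for VIM, and the collagen gene COL1A1 averaged 3678 CPM. The line thus had 4 of 7 glial markers near 0 and 3 expressed. The high-dose library of Polygalae Radix stood apart: 20.3% of its counts came from mitochondrial genes, against 10.1 to 16.8% in all others, and it had the lowest VIM, 635 CPM. Its scaling factor (TMM) was 1.216, against 0.939 to 1.042 in all others, and a higher factor lowers every CPM of a library. The vehicle libraries form a library set of their own by name, so an extract and its library set cannot be told apart against vehicle, whereas doses of one extract lay in the same set. Nothing says that the libraries of a group came from separate cultures, so p-values measure the spread between these libraries, which may be technical. In RNA from a whole culture, a change in RNA per cell and a change in which cells are present cannot be told apart.

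Per kilobase of exon, vehicle libraries had most RNA of CTSD (92.9 CPM per kb), LAMP1 (85.1) and SQSTM1 (67.5). The length used is that of all annotated exons together: 3126 bases for CTSD, 5739 for LAMP1 and 7654 for SQSTM1. It is not that of the transcripts expressed. Without division by length the order was reversed, with 516.5 CPM for SQSTM1, 488.4 for LAMP1 and 290.3 for CTSD. The order of these 3 genes is therefore not resolved. The other members were lower, with 14.8 CPM per kb for MAP1LC3B, 13.1 for NBR1 and 9.85 for OPTN. WIPI1 had 7.66, ULK1 6.47, GABARAPL1 4.86 and TFEB 2.16 CPM per kb. RNA of CTSD, LAMP1 and SQSTM1 was thus several times more abundant per length of annotated exon than that of ULK1, WIPI1 and TFEB.

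The SQSTM1 gene lies on GRCh38 at chr5:179806398-179838078 on the plus strand. The high dose of Soshiho-tang had the highest level of any group, 1280 and 1256 CPM, against 535.7 and 536.8 CPM at its low dose and 526.2, 509.1 and 514.3 CPM in vehicle. Both high-dose libraries were above every other library of the series. The medium dose, with 535.7 and 536.2 CPM, lay within the span of the low-dose libraries. The next levels were from single libraries: 909.2 CPM at the medium dose of Polygalae Radix and 873.8 CPM at the high dose of Aucklandiae Radix. Among replicated groups the next was the high dose of Yijin-tang, with 601.6, 600.4 and 597.2 CPM, and then the high dose of Zizyphi Semen with 587.3, 575.4 and 577.7 CPM. From the medium dose of Yijin-tang (mean 555.8 CPM) down to vehicle (mean 516.5 CPM, place 22 of 25) the ranges of neighbouring groups overlapped, and their order is not resolved. Below the vehicle were 3 groups whose libraries overlapped neither vehicle nor each other: the medium dose of Schisandrae Fructus with 492.6, 497.8 and 505.2 CPM, the high dose of Longan Arillus with 431.3, 463 and 451.8 CPM, and the high dose of Schisandrae Fructus with 374.5, 376.9 and 395.8 CPM.

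**Figure D1:**
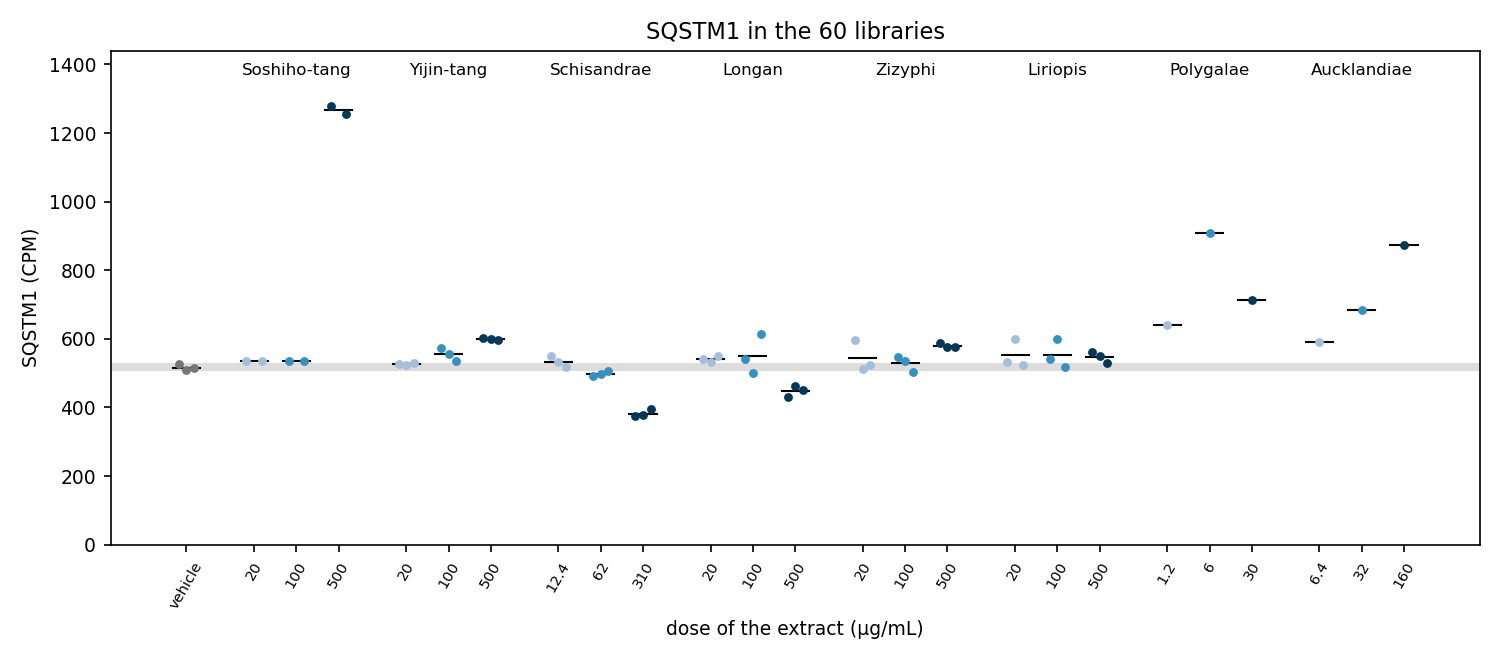
SQSTM1 level in CPM (linear axis) in each of the 60 libraries, by extract and dose with vehicle; points are libraries. The 2 high-dose Soshiho-tang libraries, 1280 and 1256 CPM, lie above all others, and the high dose of Schisandrae Fructus lies lowest, at 374.5 to 395.8 CPM.

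In the high dose of Soshiho-tang against its low dose, 6 of the 10 members rose and none fell by edgeR's quasi-likelihood test at a Benjamini-Hochberg adjusted p of 0.05, where 18.6% of all genes tested changed, 9.92% higher and 8.66% lower. SQSTM1 rose by 1.24 ± 0.07 on the log2 scale (SE; adjusted p = 4.55e-19), a 2.36-fold difference. MAP1LC3B, at chr16:87383995-87404779 on the plus strand, had 121.7 and 123 CPM at the high dose, against 77.9 and 80.87 CPM at the low dose, a log2 fold change of 0.62 ± 0.07 (edgeR, adjusted p = 4.27e-10). WIPI1, at chr17:68420948-68457513 on the minus strand, had 37.92 and 38.86 CPM, against 25.83 and 25.74 CPM at the low dose (0.57 ± 0.06, edgeR, adjusted p = 3.22e-10). In each of these genes both high-dose libraries lay above both low-dose libraries. OPTN, at chr10:13099449-13138308 on the plus strand, had 79.35 and 72.93 CPM at the high dose, against 52.49 and 50.48 CPM at the low dose (0.56 ± 0.07, edgeR, adjusted p = 5.44e-09).

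The other calls with Soshiho-tang were smaller. GABARAPL1, at chr12:10212458-10223130 on the plus strand, had 22.7 and 23.21 CPM at the high dose, against 17.18 and 19.55 CPM at the low dose (0.31 ± 0.10, edgeR, adjusted p = 0.0166). Without high-dose replicate 2, high-dose replicate 3 or low-dose replicate 2 it was no longer called, with an edgeR adjusted p of up to 0.219. ULK1, the initiating kinase, at chr12:131894651-131923167 on the plus strand, had 57.08 and 55.57 CPM at the high dose, against 48.54 and 45.46 CPM at the low dose (0.26 ± 0.08, edgeR, adjusted p = 0.0129), and was not called without high-dose replicate 2 or without low-dose replicate 3 (adjusted p up to 0.175). The groups did not overlap for either gene, but nor did they for NBR1, CTSD and TFEB, which were not called. Separation of groups of 2 libraries is therefore no support for a call. How many of all genes separated in this way was not counted for any extract. NBR1, LAMP1 and CTSD were not called, with log2 fold changes of 0.11, 0.00 and 0.05. TFEB, at chr6:41683978-41736259 on the minus strand, had 10.37 and 9.748 CPM at the high dose, against 11.75 and 13.21 CPM at the low dose, and was not called (-0.32 ± 0.13, edgeR, adjusted p = 0.0721). It was called, at -0.33 and adjusted p = 0.0139, when edgeR was fitted to the compared libraries alone. The median over the 10 members was 0.29, against 0 over all genes tested.

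In the high dose of Schisandrae Fructus against its low dose, 3 members rose and 5 fell (edgeR, Benjamini-Hochberg), in a comparison in which 45.9% of all genes tested changed, 22.3% higher and 23.6% lower. The members' median was -0.10, against 0 over all genes. WIPI1 rose most, with 49.03, 52.74 and 53.11 CPM at the high dose, against 27.83, 26.86 and 28.13 CPM at the low dose (log2 fold change 0.90 ± 0.05, edgeR, adjusted p = 1.68e-19). MAP1LC3B had 104, 94.63 and 104.2 CPM, against 80.85, 78.06 and 78.34 CPM (0.35 ± 0.05, edgeR, adjusted p = 7.16e-07). NBR1, a cargo receptor at chr17:43170481-43211689 on the plus strand, had 131.4, 123.5 and 124 CPM, against 108.1, 100.4 and 106.6 CPM (0.26 ± 0.05, edgeR, adjusted p = 2.46e-05). All high-dose libraries of these genes lay above all low-dose libraries.

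Of the members that fell with Schisandrae Fructus, SQSTM1 was at 374.5, 376.9 and 395.8 CPM at the high dose, against 551.1, 531.2 and 518.8 CPM at the low dose (-0.49 ± 0.05, edgeR, adjusted p = 4.12e-10). TFEB had 8.481, 8.972 and 10.59 CPM, against 12.98, 13.15 and 13.19 CPM (-0.49 ± 0.10, edgeR, adjusted p = 0.000104). OPTN had 36.66, 38.86 and 41.92 CPM, against 48.32, 47.81 and 48.27 CPM (-0.30 ± 0.05, edgeR, adjusted p = 1.27e-05). In all of these genes the groups were separate, with the high dose lower. Both lysosomal members fell too. CTSD, at chr11:1752752-1764573 on the minus strand, had 248.8, 258 and 266.6 CPM at the high dose, against 303.1, 309.1 and 315 CPM at the low dose (-0.27 ± 0.05, edgeR, adjusted p = 5.87e-05). LAMP1, at chr13:113297241-113323672 on the plus strand, had 446.2, 440.8 and 446.6 CPM, against 498.9, 468 and 499.3 CPM (-0.14 ± 0.03, edgeR, adjusted p = 0.000425), and was not called when no filter on low counts was used (-0.12). Thus 2 members that act on the growing membrane and the receptor NBR1 rose while 2 of the 3 cargo receptors, the transcription factor and both lysosomal members fell.

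With Yijin-tang, 2 members rose and 1 fell at the high against the low dose (edgeR), where 7% of all genes tested changed, 3.61% higher and 3.39% lower. OPTN had 62.38, 63.48 and 67.95 CPM at the high dose, against 45.34, 53.09 and 51.77 CPM at the low dose (0.36 ± 0.05, edgeR, adjusted p = 4.42e-06). SQSTM1, with 601.6, 600.4 and 597.2 CPM at the high dose, against 528, 525.1 and 530.9 CPM at the low dose, rose by 0.18 ± 0.05 (edgeR, adjusted p = 0.0263), and CTSD had 279.6, 271.4 and 254.6 CPM, against 298.1, 312.9 and 305.9 CPM (-0.19 ± 0.05, edgeR, adjusted p = 0.02). In all 3 the groups did not overlap, but nor did they for WIPI1, NBR1 and LAMP1, which were not called. The SQSTM1 call was lost when any one of the 6 libraries was left out (edgeR adjusted p up to 0.0882, log2 fold change 0.18 to 0.19), and the CTSD call without high-dose replicate 3, low-dose replicate 2 or low-dose replicate 3 or with no filter on low counts. The count of 3 fell to 1 without low-dose replicate 2. MAP1LC3B, which rose with Soshiho-tang, had 78.79, 79.62 and 81.65 CPM at the high dose of Yijin-tang, against 79.07, 79.48 and 84.23 CPM at its low dose.

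With the other ethanol extracts few members moved at the high against the low dose. For Longan Arillus only SQSTM1 was called by edgeR, among 0.941% of all genes tested (0.342% higher and 0.599% lower): 431.3, 463 and 451.8 CPM at the high dose, against 540.6, 531.2 and 551.1 CPM at the low dose (-0.27 ± 0.05, adjusted p = 0.00303). That call was lost when only the compared libraries were fitted (adjusted p = 0.0892). CTSD was at 258.6, 278.4 and 268 CPM, against 301.9, 294.4 and 314.3 CPM at the low dose, a log2 fold change of -0.18 that edgeR did not call (adjusted p = 0.101). For Zizyphi Semen only WIPI1 was called, among 5.78% of all genes (2.02% higher and 3.76% lower): 29.62, 31.8 and 30.72 CPM at the high dose, against 26.46, 28.59 and 26.09 CPM at the low dose (0.18 ± 0.05, edgeR, adjusted p = 0.021). The call was lost without high-dose replicate 2 or 3 or low-dose replicate 1 or 3 (adjusted p up to 0.143), with no filter on low counts, and when only the compared libraries were fitted. For Liriopis seu Ophiopogonis Tuber no member was called, among 0% of all genes. There 1 member had an unadjusted p under 0.05 in edgeR, and DESeq2 called 0.

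**Figure D2:**
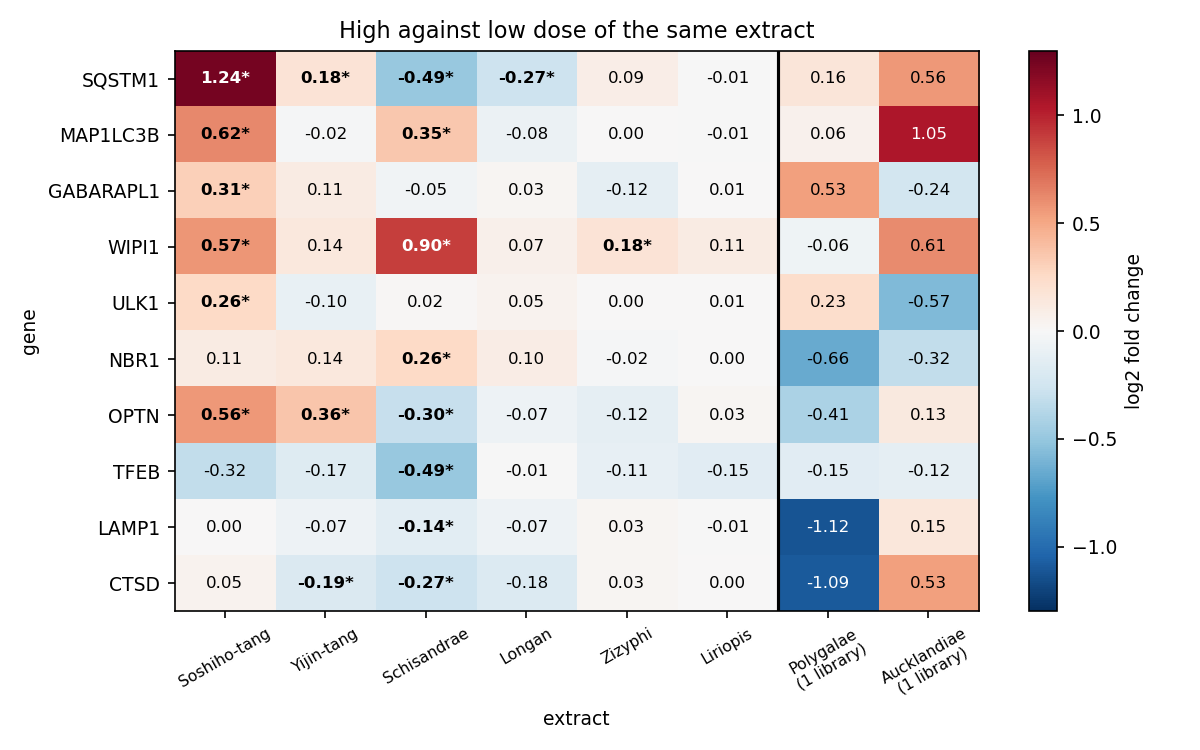
Log2 fold change of each member at the high against the low dose of each extract, as a heat map; a star marks an edgeR adjusted p under 0.05, and the 2 extracts at the right have 1 library per dose and no test. SQSTM1 is highest in Soshiho-tang (1.24) and lowest in Schisandrae Fructus (-0.49).

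At the medium dose edgeR called 0 of the 10 members against the low dose in each of the 6 replicated extracts, and DESeq2 also called 0. Of all genes tested, edgeR called 0.0392% with Schisandrae Fructus, 0.0224% with Yijin-tang, 0.0112% with Soshiho-tang and 0% with the others. Members with an unadjusted p under 0.05 in edgeR numbered 0 for Soshiho-tang and Zizyphi Semen, 1 for Yijin-tang, Schisandrae Fructus and Liriopis seu Ophiopogonis Tuber, and 2 for Longan Arillus. WIPI1 at the medium dose of Schisandrae Fructus, 27.27, 27.89 and 27.21 CPM, overlapped the low dose. MAP1LC3B at the medium dose of Soshiho-tang, 74.83 and 80.61 CPM, overlapped the low dose as well. In Longan Arillus medium-dose replicate 3 was apart from its group, with 614.4 CPM of SQSTM1 against 539.9 and 499.4 CPM in replicates 1 and 2, and 17.53 CPM of TFEB against 13.06 and 12.82 CPM.

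**Figure D3:**
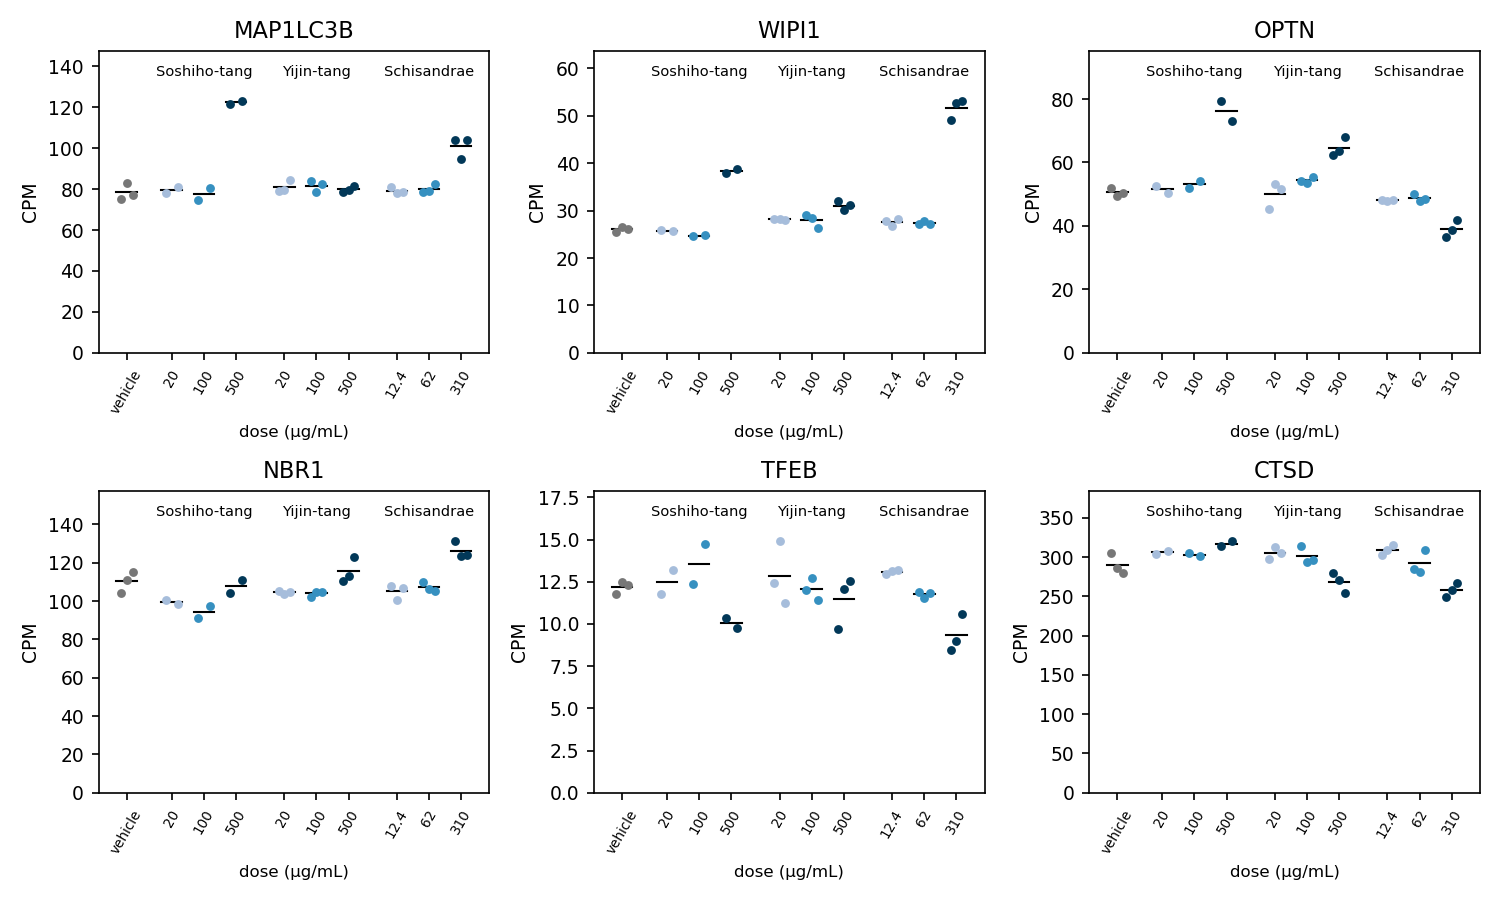
Level in CPM (linear axes) of MAP1LC3B, WIPI1, OPTN, NBR1, TFEB and CTSD in vehicle and at the low, medium and high doses of Soshiho-tang, Yijin-tang and Schisandrae Fructus; points are libraries. WIPI1 at the high dose of Schisandrae Fructus lies at 49.03 to 53.11 CPM, while its low and medium doses lie between 26.86 and 28.13 CPM.

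Against vehicle, all comparisons use the same 3 vehicle libraries and are not independent of each other. At the high dose of Soshiho-tang 5 members rose by edgeR, where 30.3% of all genes tested changed and 14.2% were higher, with SQSTM1 at 1.29 ± 0.06 (adjusted p = 1.36e-21), MAP1LC3B at 0.63, OPTN at 0.58 and WIPI1 at 0.55. The fifth, ULK1 at 0.19 (adjusted p = 0.0421), was lost without any one of the 5 libraries compared. At the high dose of Schisandrae Fructus the 3 members that rose and the 5 that fell were those called against the low dose, where 50.1% of all genes changed (23.4% higher and 26.7% lower), with WIPI1 at 0.98 and SQSTM1 at -0.44. LAMP1 and CTSD were not called there with no filter on low counts. At the high dose of Yijin-tang 4 rose among 19.7% of all genes (8.02% higher), OPTN at 0.35, WIPI1 at 0.25, GABARAPL1 at 0.22 and SQSTM1 at 0.21, and the GABARAPL1 call (edgeR, adjusted p = 0.045) was lost without any one vehicle library or without high-dose replicate 1 or 2.

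The remaining high doses had few calls against vehicle. SQSTM1 fell with Longan Arillus (-0.21, edgeR, adjusted p = 0.00634) among 15.9% of all genes tested (10.3% lower). Zizyphi Semen had 3 calls among 13.3% of all genes (5.31% higher and 7.97% lower): SQSTM1 at 0.16, WIPI1 at 0.23 and NBR1 at -0.16. Its SQSTM1 call (edgeR, adjusted p = 0.0422) was lost without vehicle replicate 1, 2 or 3, without high-dose replicate 1 or 3, and with no filter on low counts. Its NBR1 call was lost without vehicle replicate 2 or 3 or any one high-dose library, with no filter, and in the fit of the compared libraries alone. Liriopis seu Ophiopogonis Tuber had 1 call among 4.08% of all genes (2.66% lower), NBR1 at -0.17 (edgeR, adjusted p = 0.0496), lost without vehicle replicate 2 or 3 or any one high-dose library and under 4 other settings.

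NBR1 gave every call at the lower doses against vehicle, and all of them were falls. Vehicle had 104.4, 111.1 and 115.3 CPM of NBR1, place 3 of the 25 group means. The medium dose of Soshiho-tang averaged 94.33 CPM (-0.23, edgeR, adjusted p = 0.0128; 4.18% of all genes called, 2.91% lower), that of Longan Arillus 95.38 CPM (-0.21, adjusted p = 0.003; 25.2%, 15.1% lower) and that of Zizyphi Semen 97.02 CPM (-0.19, adjusted p = 0.00956; 14.4%, 9.08% lower). The low dose of Liriopis seu Ophiopogonis Tuber averaged 98.96 CPM (-0.16, edgeR, adjusted p = 0.0442; 6.6%, 4.57% lower). edgeR called no member in the other medium-dose comparisons, of Schisandrae Fructus (5.38% of all genes called), Liriopis seu Ophiopogonis Tuber (12.9%) and Yijin-tang (14.2%). Nor did it in the other low-dose ones, of Schisandrae Fructus (1.08%), Soshiho-tang (1.89%), Yijin-tang (2.57%), Longan Arillus (5.32%) and Zizyphi Semen (18.5%). These calls rest on few libraries: the 3 medium-dose calls became 1 without vehicle replicate 3 and 5 without Longan Arillus medium-dose replicate 1, and the 1 low-dose call became 0 without vehicle replicate 2 and 3 without vehicle replicate 1. The Longan Arillus value was -0.12 and not called without medium-dose replicate 3, the Soshiho-tang call was lost without vehicle replicate 2 or 3 or medium-dose replicate 2, and the Zizyphi Semen call without vehicle replicate 3 or medium-dose replicate 3. With only the compared libraries fitted, edgeR called 0 of all genes higher and 0 lower at the medium dose of Longan Arillus. At the low dose of Liriopis seu Ophiopogonis Tuber that fit called 4 of all genes higher and 4 lower. The all-gene shares given for these 2 comparisons therefore depend on the fit as well. Vehicle and extract libraries were in different library sets, and the part of the set in these falls was not tested.

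Soshiho-tang and Yijin-tang could be set against each other at the same doses within the same library set, each high dose relative to its low dose. SQSTM1 rose by 1.06 ± 0.08 more on the log2 scale with Soshiho-tang than with Yijin-tang (95% interval 0.89 to 1.23; edgeR, adjusted p = 5.82e-13), in a comparison in which 9.4% of all genes tested differed. MAP1LC3B differed by 0.64 ± 0.08 (edgeR, adjusted p = 2.67e-07), WIPI1 by 0.43 ± 0.08 and ULK1 by 0.36 ± 0.10. OPTN, which rose with both decoctions, differed by 0.20 and this was not called (edgeR, adjusted p = 0.15). Of the ethanol extracts at matched doses, Longan Arillus differed from Zizyphi Semen in SQSTM1 alone among the members, by -0.36 ± 0.08 (edgeR, adjusted p = 0.00191; 3.97% of all genes).

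Soshiho-tang and Schisandrae Fructus differ in dose and in library set, so their comparison is of these high doses as given and was added after the values were seen. The high minus low differences differed in 7 of the 10 members, where 24.1% of all genes tested did. SQSTM1 differed by 1.73 and OPTN by 0.87, with Soshiho-tang higher, and WIPI1 by -0.33, with Soshiho-tang lower. MAP1LC3B, which rose in both, differed by 0.27 (edgeR, adjusted p = 0.0133). WIPI1 and MAP1LC3B therefore rose with both extracts, while the cargo receptors SQSTM1 and OPTN rose with Soshiho-tang and fell with Schisandrae Fructus.

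**Figure D4:**
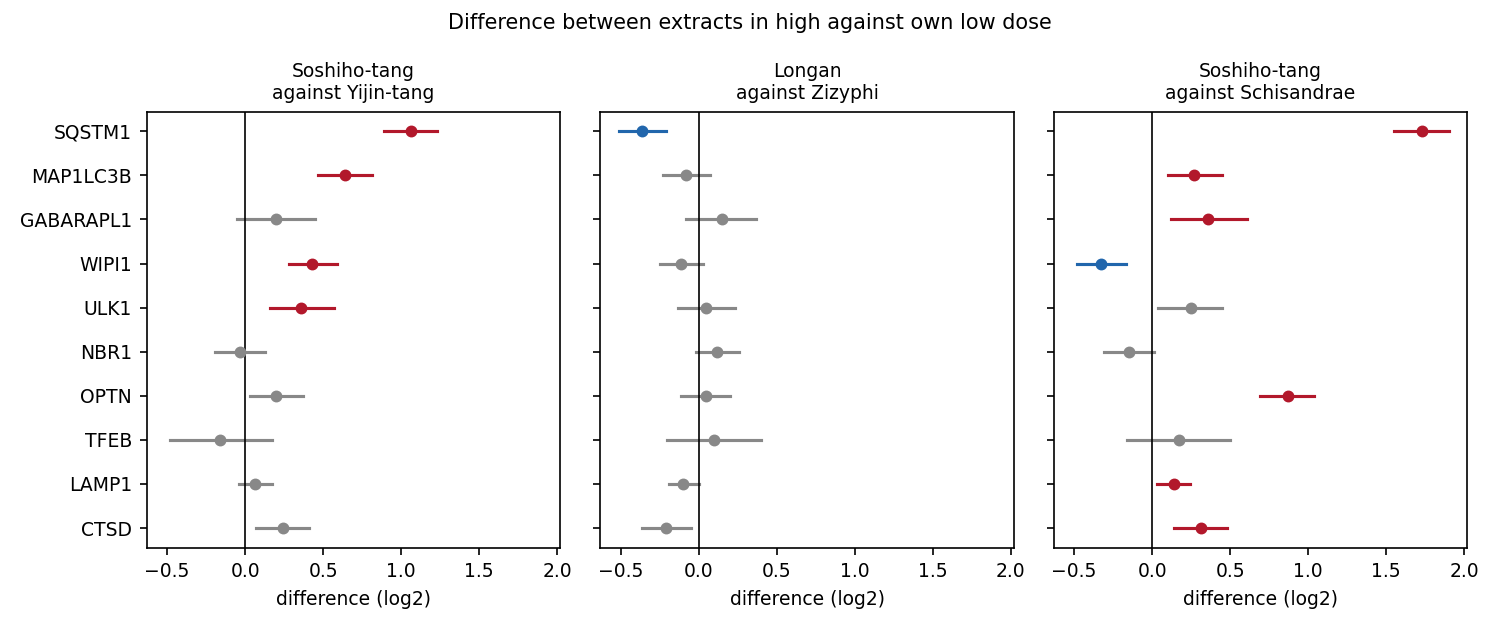
Difference between extracts in the log2 change from low to high dose for each member, with 95% intervals, for Soshiho-tang against Yijin-tang, Longan Arillus against Zizyphi Semen and Soshiho-tang against Schisandrae Fructus. SQSTM1 differs by 1.06, -0.36 and 1.73 in these pairs.

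The single libraries of Polygalae Radix and Aucklandiae Radix allow no test, and a difference in them has no replicate check. SQSTM1 had 641.6, 909.2 and 714.6 CPM at the low, medium and high doses of Polygalae Radix, with exact 95% intervals for counting error alone of 630.7 to 652.5, 898.5 to 920.8 and 705.5 to 724.2 CPM. Aucklandiae Radix had 591.9, 683.9 and 873.8 CPM, with intervals of 582.1 to 601.7, 673.3 to 694.2 and 862.4 to 885.6 CPM. The SQSTM1 level was thus highest at the medium dose of the one and at the high dose of the other. Reads are not independent molecules, so these intervals do not cover the spread between cultures.

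At the high dose of Aucklandiae Radix against its low dose, MAP1LC3B (183.7 against 88.66 CPM, log2 ratio 1.05) and WIPI1 (41.08 against 26.88 CPM, 0.61) were past 1.5-fold higher, as were 7.14% of all genes (15.9% in either direction). Against vehicle, SQSTM1 (0.76), MAP1LC3B (1.23), WIPI1 (0.66) and CTSD (0.67) were past 1.5-fold higher at that dose, as were 10.9% of all genes (23.3% in either direction). No other library had as much MAP1LC3B RNA. At the high dose of Polygalae Radix against its low dose, NBR1 (57.84 against 91.62 CPM), LAMP1 (219.5 against 478 CPM) and CTSD (150.7 against 320.8 CPM) were past 1.5-fold lower, with log2 ratios of -0.66, -1.12 and -1.09, among 17.5% of all genes past that fold lower and 31.9% in either direction. This is the library that stood apart in its mitochondrial share and scaling factor, and the part of these in the ratios was not tested. The medium dose against the low dose put no member past 1.5-fold in either extract (1.11% of all genes in Polygalae Radix and 1.52% in Aucklandiae Radix), and the SQSTM1 log2 ratio there was 0.50 in Polygalae Radix. Against vehicle, GABARAPL1 was past 1.5-fold higher (0.68) and NBR1 (-0.93), LAMP1 (-1.15) and CTSD (-0.94) past it lower at the high dose of Polygalae Radix, with 12.3% of all genes past it higher, 16.9% lower and 29.2% in either direction. SQSTM1 was past it higher at the medium dose of Polygalae Radix (0.82), as were 1.15% of all genes (4.48% in either direction). No member was past it against vehicle at the medium dose of Aucklandiae Radix (9.47% of all genes) or at either low dose (5.87% for Polygalae Radix and 2.42% for Aucklandiae Radix).

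The other genes of the system were taken as 7 lists, which with the members hold 148 genes, 147 of them tested, and counted at the high against the low dose with edgeR. Each count stands against the all-gene shares of 9.92% higher and 8.66% lower with Soshiho-tang and 22.3% higher and 23.6% lower with Schisandrae Fructus. Of 35 other genes of autophagosome formation, 7 rose and 1 fell with Soshiho-tang (median log2 fold change 0.06, against 0 over all genes) and 11 rose and 9 fell with Schisandrae Fructus (median 0.06), the falls there being near the all-gene share of 23.6%. PLEKHM1, which tethers autophagosomes to lysosomes, had 69 CPM at the high dose of Soshiho-tang, against 39.25 CPM at the low dose (0.81, edgeR, adjusted p = 2.5e-13), and fell with Schisandrae Fructus (-0.26). TMEM41B, an endoplasmic reticulum lipid scramblase, had 60.39 against 37.11 CPM in Soshiho-tang (0.70) and was not called in Schisandrae Fructus (0.10). VMP1, another scramblase, fell with Soshiho-tang by 0.29 on the log2 scale. With Schisandrae Fructus, ATG4D, a protease that processes ATG8 proteins, rose (0.54), and PIK3C3 (-0.44) and ATG14 (-0.39), parts of the lipid kinase complex whose product WIPI1 binds, fell. Of the 4 other ATG8 genes tested edgeR and DESeq2 called 0 with Soshiho-tang, 0 had an unadjusted p under 0.05 there, and 1, GABARAP (-0.34), fell with Schisandrae Fructus. The other extracts had few calls in the list of 35: 1 rise and 2 falls with Zizyphi Semen, and 0 by edgeR and DESeq2 with Yijin-tang, Longan Arillus and Liriopis seu Ophiopogonis Tuber, where 3, 2 and 1 had an unadjusted p under 0.05.

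Of 12 other cargo receptors, 4 rose and 3 fell with Soshiho-tang (median 0.11), and 2 rose and 5 fell with Schisandrae Fructus (median -0.13). Of all genes, 18.6% and 45.9% were called in these comparisons, 22.3% higher in the second. CALCOCO2 (NDP52), a receptor for bacteria and damaged mitochondria, rose in both, with 94.04 against 73.17 CPM in Soshiho-tang (0.36, edgeR, adjusted p = 5.04e-08) and a log2 fold change of 0.26 in Schisandrae Fructus. BNIP3, a mitochondrial receptor that is a known hypoxia target, fell in both: 54.32 CPM at the high dose of Soshiho-tang, against 97.6 CPM at its low dose (-0.85, edgeR, adjusted p = 1.89e-11), and -0.54 with Schisandrae Fructus. BNIP3 fell with Longan Arillus too, where 2 receptors fell and none rose (65.23 against 90.96 CPM, -0.48, edgeR, adjusted p = 1.21e-05), and rose with Zizyphi Semen (0.26), where 2 rose and 2 fell. NCOA4, the receptor for ferritin, fell with Soshiho-tang (-0.20, edgeR, adjusted p = 0.0065) and with Schisandrae Fructus (-0.40). Yijin-tang had 1 rise, CALCOCO2 (0.12).

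In Schisandrae Fructus more genes of both lysosomal lists fell than rose, in a comparison with 22.3% of all genes higher and 23.6% lower. Of 25 genes of the lysosomal membrane and its proton pump, 3 rose and 13 fell at its high dose (median -0.17), against 6 up and none down with Soshiho-tang (median 0.07). Of 38 hydrolases and their activators, 5 rose and 14 fell with Schisandrae Fructus (median -0.12), against 1 up and 2 down with Soshiho-tang (median -0.01). The hydrolase calls taken in both directions are near the 45.9% of all genes called with Schisandrae Fructus and below the 18.6% called with Soshiho-tang. The pump subunit ATP6V1C1 had 54.45 CPM at the high dose of Schisandrae Fructus, against 90.63 CPM at the low dose (-0.74, edgeR, adjusted p = 1.6e-16). The sulfamidase SGSH fell (-0.68), while the acid glucosidase GAA (0.33), the protease CTSB (0.21) and the cholesterol exporter NPC1 (0.39) rose. In Soshiho-tang the cystine exporter CTNS rose to 22.2 CPM, against 14.4 CPM at the low dose (0.62), and NPC1 rose too (0.49); CTNS fell with Schisandrae Fructus (-0.75). Yijin-tang had 1 up and 2 down in the first of these lists and 2 up and 1 down in the second. Longan Arillus, Zizyphi Semen and Liriopis seu Ophiopogonis Tuber had none called by edgeR in either list, with 0 to 5 genes of a list at an unadjusted p under 0.05; DESeq2 called 2 falls in the membrane list for Longan Arillus and 0 in the rest.

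Of 15 relatives of TFEB and nutrient sensors, 5 rose and 2 fell with Soshiho-tang (median 0.11), and 2 rose and 9 fell with Schisandrae Fructus (median -0.27), where 18.6% and 45.9% of all genes were called. RRAGC, a GTPase that brings mTORC1 to the lysosome, rose with Soshiho-tang (0.52, edgeR, adjusted p = 8.62e-08) and fell with Schisandrae Fructus (-0.41) and Yijin-tang (-0.26). Values of PLEKHM1, TMEM41B, CTNS, NPC1, NCOA4 and TFE3 in the extract for which the naming rule did not pick them were added after they were seen. MITF, a TFEB relative, fell with Soshiho-tang (-0.22) and Schisandrae Fructus (-0.44), and TFE3, another, rose with both (0.29 and 0.24). Of 8 genes of the KEAP1 and NRF2 route, 7 rose with Soshiho-tang (median 0.54) and 6 with Schisandrae Fructus (median 0.30), and none fell. HMOX1, haem oxygenase, had 458.3 CPM at the high dose of Soshiho-tang, against 53.73 CPM at the low dose (3.09 ± 0.08, edgeR, adjusted p = 2.06e-30), and TXNRD1, thioredoxin reductase, 461.7 against 255.8 CPM (0.85, edgeR, adjusted p = 9.05e-15). KEAP1 itself, named after its values were seen, was not called there (0.04). In the list of TFEB relatives edgeR called 2 falls with Yijin-tang, 1 with Longan Arillus (DESeq2 2) and 0 with Zizyphi Semen and Liriopis seu Ophiopogonis Tuber (DESeq2 0 in both, with 1 and 0 genes at an unadjusted p under 0.05). In the list of the KEAP1 and NRF2 route it called 1 rise each with Yijin-tang and Zizyphi Semen, 0 with Longan Arillus, where DESeq2 called 2 rises and 3 genes had an unadjusted p under 0.05, and 0 with Liriopis seu Ophiopogonis Tuber (DESeq2 0, 1 gene). In Schisandrae Fructus TXNRD1 (0.63) and SRXN1 (0.61) rose while SQSTM1 fell.

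**Figure D5:**
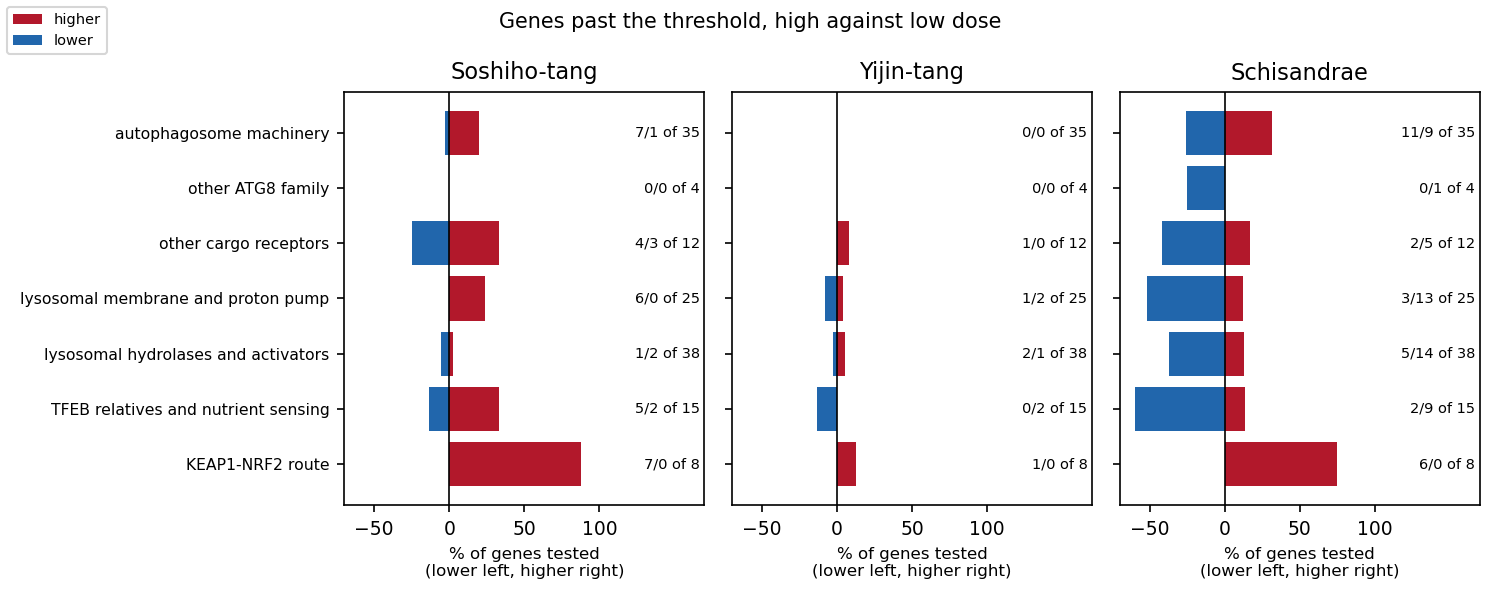
Share of the genes tested in each list that rose or fell at the high against the low dose of Soshiho-tang, Yijin-tang and Schisandrae Fructus (percent, edgeR adjusted p under 0.05), with the numbers up and down beside each bar. Of the lysosomal membrane list 6 rose and none fell with Soshiho-tang, while 3 rose and 13 fell with Schisandrae Fructus.

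In the single libraries, the hydrolase list had none past 1.5-fold higher and 26 of 38 past it lower at the high against the low dose of Polygalae Radix (median log2 ratio -0.94, against 0.02 over all genes), and 5 higher and 11 lower of the 25 membrane and pump genes. For Aucklandiae Radix 3 hydrolases were past it higher and 1 lower, and 6 membrane and pump genes higher and none lower. Of the 8 genes of the KEAP1 and NRF2 route, 6 were past it higher and 0 lower with Aucklandiae Radix (median 0.85). With Polygalae Radix 5 of these 8 were past it higher and 1 lower (median 0.9). Of all genes, 17.5% were past it lower and 31.9% in either direction with Polygalae Radix, the rest of the 31.9% being higher. Its high-dose library is the one that stood apart, with a mitochondrial share of 20.3% and a scaling factor of 1.216. The part of these in the list counts was not tested. With Aucklandiae Radix 7.14% were higher and 15.9% in either direction. Its hydrolase count is thus near the all-gene share for higher and not above that in either direction. HMOX1 had 1297 CPM at the high dose of Aucklandiae Radix, against 62.83 CPM at the low dose (log2 ratio 4.37).

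Several of these genes share exons with a neighbour, and the strand setting of the counting is not given. The largest overlap is that of CTSD with AC068580.4, a protein-coding gene on the same strand that covers 41.7% of the CTSD exon bases, so strand cannot separate their reads. AC068580.4 was assigned at most 0.707 CPM in any library, and how reads were split between the genes was not tested. MRNIP, on the other strand, covers 20.7% of the SQSTM1 exon bases. It rose with Soshiho-tang (59.21 against 35.25 CPM, 0.74 ± 0.09, edgeR, adjusted p = 7.29e-09) and fell with Schisandrae Fructus (31.69 against 38.62 CPM, -0.29), in the direction of SQSTM1 both times, at a level far below it, and fell with Zizyphi Semen (-0.44), where SQSTM1 was not called. ARSG covers 24.3% of the WIPI1 exon bases on the other strand and was not called in any high against low comparison. The near-identical MAP1LC3B2 did not exceed 0.684 CPM. The part of these genes in the members' values was not tested.

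Genes at 10 CPM or more were ranked by how closely their group means followed SQSTM1 over the 25 groups, as a description with no test. Pearson's r on log2 levels was 0.888 for LURAP1L, 0.881 for MSC, 0.838 for LACTB, 0.834 for PPP1R15A and 0.832 for SLC35E3. Without the high dose of Polygalae Radix, which stood apart, PPP1R15A (0.899), EGLN2 (0.894) and STX3 (0.894) led. Of the members, MAP1LC3B (0.644) and OPTN (0.578) were most like SQSTM1, and NBR1 (-0.433) and ULK1 (-0.236) least. These points share libraries, depth and extracts.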

How the data were processed

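The submitters' processing notes name FastQC 0.11.9, Trim Galore 0.6.5, STAR 2.7.3a, RSEM 1.3.3 and the build hg38. The kit was strand-specific and reads were paired, per the labels' protocols. Which annotation and strand setting the counting used is not given in those sources. The authors deposited expected counts, which divide ambiguous reads among genes (10.86% of values were not whole). These were rounded to whole numbers. Of 51 pairs of libraries of one group, none were copies (chi-square per degree of freedom 2.24 to 55.64).

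Groups follow the labels. The fit in edgeR 4.0.16 (R 4.3.3, limma 3.58.1) covered 54 libraries, those of the 19 replicated groups, and 17851 genes that passed filterByExpr. It used TMM scaling and a quasi-likelihood F test with 35 residual and 6.3 prior degrees of freedom. P-values were adjusted by Benjamini-Hochberg over all genes tested, with a threshold of 0.05, and the SE is the absolute log2 fold change divided by the root of F. Levels are CPM scaled over all 60 libraries. Groups of 1 library were compared as log2 ratios with a prior count of 2, counted past 1.5-fold where either reached 5 CPM. Up to 2 genes each way with the lowest adjusted p were named per list and comparison, and not every such gene is reported here. Gene positions are from GENCODE 29. Alternatives were DESeq2 1.42.0, other scaling, no filter, a replicate block, the compared libraries alone and each library left out. The fits were tested on simulated data with planted 1.5-fold and 2-fold changes, the same spread for every gene and no library sets. That run does not bear on smaller changes or on outlying libraries. The members, the lists and the added comparison were chosen with earlier results of these data known, so no list is independent evidence.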

Additional observations from a re-analysis of the deposited data

Results flagged for a closer look

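The change from low to high dose differed between extracts in 12 tests of a member (edgeR's quasi-likelihood test of the difference, Benjamini-Hochberg over all genes). Of all genes tested, 9.4% differed between Soshiho-tang and Yijin-tang and 3.97% between Longan Arillus and Zizyphi Semen. Between Soshiho-tang and Schisandrae Fructus 24.1% did. Between Soshiho-tang and Yijin-tang, which share doses and a library set, SQSTM1 differed by 1.06 on the log2 scale, MAP1LC3B by 0.64, WIPI1 by 0.43 and ULK1 by 0.36 (edgeR adjusted p of 5.82e-13, 2.67e-07, 6.44e-05 and 0.0129), each more raised with Soshiho-tang. Between Longan Arillus and Zizyphi Semen, SQSTM1 differed by -0.36, lower with Longan Arillus. Between Soshiho-tang and Schisandrae Fructus, which differ in dose and library set, SQSTM1 differed by 1.73, OPTN by 0.87, GABARAPL1 by 0.36, CTSD by 0.31, MAP1LC3B by 0.27 and LAMP1 by 0.14, each higher with Soshiho-tang, and WIPI1 by -0.33, lower with it. The LAMP1 difference lay close to the threshold (edgeR, adjusted p = 0.0496). This last pair was chosen after its values were seen, and the extract, the dose and the set cannot be told apart there. No group had the 4 libraries that a check for a single outlying library needs.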

How the results depend on the processing

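No change of a member against the low dose or vehicle changed sign past the threshold under any alternative run. The differences between extracts were not refitted in these runs. The members called at the high against the low dose numbered 19 in all, 20 with DESeq2, 19 with a replicate block and 17 to 19 with 1 library left out. At the high dose against vehicle they numbered 22, also with DESeq2 and with the replicate block. Counts that moved by over 1.5 times were small. Medium dose against vehicle gave 3, against 1 with no filter on low counts and 1 to 5 with 1 library left out. Low dose against vehicle gave 1, against 0 with relative log expression size factors, with no filter and with the compared libraries alone, 2 with DESeq2, and 0 to 3 with 1 library left out. High against low dose gave 1 for Longan Arillus, against 2 with DESeq2 and 0 with the compared libraries alone, 1 for Zizyphi Semen, against 0 with no filter, 0 with the compared libraries alone and 0 to 1 with 1 library left out, and 3 for Yijin-tang, against 1 to 2. SQSTM1 was not called in Longan Arillus with the compared libraries alone (-0.27), nor in Zizyphi Semen against vehicle with no filter (0.17) or in 5 of 6 fits with 1 library left out (0.15 to 0.18), nor in Yijin-tang high against low dose in any of 6 (0.18 to 0.19). Calls of list genes picked by the naming rule were refitted in the same way, and some were lost. Which of them were lost is not reported here. The cause of lost calls was not tested. Deviations of same-numbered libraries at the high and low doses had correlations of -0.054 to 0.105 (17 values). The 2 values of Soshiho-tang are equal by construction. With 2 or 3 libraries in a group, such values cannot decide whether the numbers pair libraries. In Liriopis seu Ophiopogonis Tuber, replicate 3 had the highest mitochondrial share of its group at every dose (15.91, 13.73 and 14.66% from low to high). Scaling moved the median of all genes by at most 0.013 between size factors. Genes below about 10 CPM, TFEB among them at times, carry more counting error than SQSTM1.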
